A study of Homo sapiens with 4 samples.

Results

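The genes described here are 10 markers used to recognise the malignant T cells of mycosis fungoides and Sezary syndrome: GATA3, TOX, TOX2, TWIST1, PLS3, KIR3DL2, DNM3, NEDD4L, BLK and MAF. They were taken by name from a table of 58735 genes, where each has 1 row. The table was measured in Myla, an established line from mycosis fungoides, which is a T cell lymphoma of the skin. In the shFOXM1 group (2 libraries) the cells carried a lentivirus with a short hairpin RNA against FOXM1, and in the shControl group (2 libraries) a lentivirus with a scrambled hairpin. Handling was alike in both groups: each 1 mL culture received 10 uL of medium holding virus, fresh medium replaced it after 24 h, and RNA was taken after another 72 h. Whether the 2 shFOXM1 libraries carry the same hairpin is not stated, and Myla stands here as a single line. The first question was which markers the line expresses, and the next was whether their levels differ under knockdown of FOXM1, the forkhead factor that drives genes of mitosis.

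Mycosis fungoides and its leukaemic relative, Sezary syndrome, are lymphomas of helper T cells, and their cells resemble healthy activated T cells under the microscope. Genes that the malignant cells switch on or raise can therefore help to recognise them. Some of the 10 are transcription factors with a normal role in T cells: GATA3 is the zinc-finger factor that directs the T helper 2 fate, TOX is an HMG-box factor of thymocyte selection, TOX2 is its close relative, and MAF is a bZIP factor that helps switch on IL4. Others belong to another lineage: TWIST1 is a bHLH factor of mesenchymal cells, PLS3 is the plastin of cells outside the blood, KIR3DL2 is a receptor of NK cells and BLK is a Src family kinase of B cells. DNM3 is a dynamin, a GTPase that severs membranes, and NEDD4L is a HECT ubiquitin ligase that marks membrane proteins for removal.

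The libraries held 15017728 and 14680094 reads in shFOXM1 1 and 2, against 14147084 and 14778639 in shControl 1 and 2. FOXM1 was at 9.27 and 5.59 FPKM in shFOXM1 1 and 2, against 26.5 and 27.6 FPKM in shControl 1 and 2. FPKM is reads scaled to gene length and to a size set for each library. The log2 fold change of FOXM1 was -1.77 (SE 0.23) and missed the threshold (limma, adjusted p = 0.173). The shFOXM1 libraries lay further from each other than the shControl libraries: the SD over tested genes of the log2 difference was 0.424 within shFOXM1 and 0.263 within shControl. Of 11 genes that define T cells, 6 passed the filter used for tests: CD3D, CD3G, CD247, CD2, TRAC and TRBC2. The other 5 (CD3E, CD5, CD4, TRBC1 and LCK) had at most 6 reads in any library, and CD4 had 0 in all 4.

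Of the 10 markers, 5 were expressed above the filter of 1 FPKM, in all 4 libraries each. In descending order these were GATA3, BLK, TOX, TWIST1 and DNM3. MAF came next, under 1 FPKM in every library. The remaining 4 were at or near 0: KIR3DL2 with 2 or 3 reads in each library, NEDD4L with 2 reads in shControl 2 and 0 elsewhere, and PLS3 and TOX2 with 0 reads in all 4 libraries. Along this order, from GATA3 down to NEDD4L, the lowest library of each gene lay above the highest library of the next, so no neighbours overlapped. Between KIR3DL2 and NEDD4L this rested on 3 reads or fewer in a library, so the order of these genes is not resolved. NEDD4L, PLS3 and TOX2 could not be ranked, since each had at least 3 libraries at 0.

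**Figure D1:**
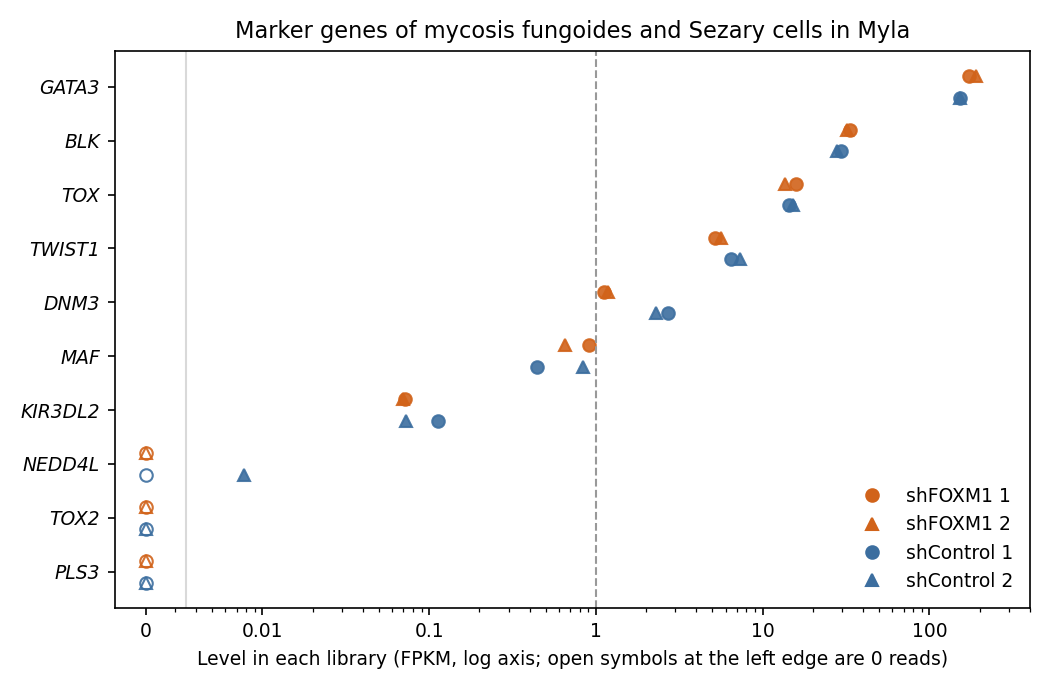
Level of each marker gene in each library, in FPKM on a log axis, with shFOXM1 libraries above shControl libraries in each row. Open symbols at the left edge are libraries with 0 reads and the dashed line is the filter of 1 FPKM. GATA3 lies between 152 and 192 FPKM, 5 markers lie right of the line, and PLS3 and TOX2 have 0 reads throughout.

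The 4 transcription factors with a normal role in T cells ran from the top of the list to the bottom. GATA3 (ENSG00000107485, plus strand, chr10:8045378-8075203 in GRCh38) was the most abundant marker. It was at 172 and 192 FPKM in shFOXM1 1 and 2, against 153 and 152 FPKM in shControl 1 and 2. Its mean in shControl exceeded that of 99.2% of the 19951 protein-coding genes in the table. Both shFOXM1 libraries lay above both shControl libraries, and their 95% counting intervals (exact Poisson, counting error only) did not meet: the lowest bound in shFOXM1 was 169 FPKM and the highest in shControl 157 FPKM. The shFOXM1 libraries also differed from each other beyond counting error, with intervals of 169 to 176 and 188 to 195 FPKM. The group means were 182 ± 13.7 FPKM in shFOXM1 and 153 ± 0.981 FPKM in shControl (SD, n = 2 each), a ratio of 1.19. The log2 fold change on the log2(FPKM + 1) scale was 0.25 (SE 0.10, 95% interval -0.017 to 0.52), and it did not pass limma's test over all genes (adjusted p = 0.302). The log2 fold change was 0.33 without shFOXM1 1 and 0.17 without shFOXM1 2, fits in which shFOXM1 holds a single library. With 2 libraries in each group, limma's adjusted p ran from 0.277 to 0.489 over the alternatives.

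GATA3 carries an antisense neighbour, GATA3-AS1, a long non-coding RNA on the minus strand within the GATA3 span. It was at 30.9 and 31.9 FPKM in shFOXM1 1 and 2, against 25.3 and 25.1 FPKM in shControl 1 and 2. Both shFOXM1 libraries were again the higher ones. The 2 genes share 0 exonic bases of the 3436 in GATA3.

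TOX (ENSG00000198846, minus strand, chr8:58805418-59119208) was at 16.0 and 13.6 FPKM in shFOXM1 1 and 2, against 14.4 and 15.1 FPKM in shControl 1 and 2. The groups overlapped, with the shFOXM1 libraries the highest and the lowest of the 4. Means were 14.8 ± 1.64 FPKM in shFOXM1 and 14.7 ± 0.542 FPKM in shControl (SD, n = 2 each), on 842 to 976 reads a library. The log2 fold change was 0.0020 with a 95% interval of -0.33 to 0.33 (limma, adjusted p = 0.995). That interval leaves room for a change of either sign within those bounds. An antisense RNA, AC090152.1, shares 169 of the 4131 exonic bases of TOX and had 69 to 97 reads, and whether counting used strand is not known.

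TOX2 (ENSG00000124191, plus strand, chr20:43914864-44069616) had 0 reads in every library. At this depth 3 reads, the floor used for a count of 0, were worth 0.0611 to 0.0656 FPKM for this gene. TOX2 therefore lay at or below that level in both groups, while TOX stood above 13.6 FPKM.

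MAF (ENSG00000178573, minus strand, chr16:79585843-79600714) was at 0.910 and 0.649 FPKM in shFOXM1 1 and 2, against 0.444 and 0.836 FPKM in shControl 1 and 2. The groups overlapped, and the 2 shControl libraries, on 44 and 86 reads, had counting intervals that did not meet (0.323 to 0.597 and 0.668 to 1.03 FPKM). MAF was under the filter, so it was not tested. Means were 0.780 ± 0.185 FPKM in shFOXM1 and 0.640 ± 0.277 FPKM in shControl (SD, n = 2 each), a difference smaller than the spread within either group.

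The markers from other lineages split between expressed and absent. BLK (ENSG00000136573, plus strand, chr8:11486894-11564604) was at 33.5 and 32.0 FPKM in shFOXM1 1 and 2, against 29.3 and 28.0 FPKM in shControl 1 and 2. Both shFOXM1 libraries were above both shControl libraries, and their counting intervals came close without meeting: the lowest bound in shFOXM1 was 30.7 FPKM and the highest in shControl 30.6 FPKM. These bounds cover counting error only, not the spread between replicates. The means were 32.7 ± 1.10 FPKM in shFOXM1 and 28.6 ± 0.958 FPKM in shControl (SD, n = 2 each), a ratio of 1.14. The log2 fold change of 0.19 (SE 0.10, 95% interval -0.085 to 0.46) did not pass the test (limma, adjusted p = 0.409). Its shControl mean exceeded that of 92.3% of protein-coding genes.

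Most markers of B cells, the lineage in which BLK is normally used, were near 0. Of 10 B cell markers, 1 passed the filter, CD79A, and MS4A1, BANK1 and FCRLA had 0 reads in every library. The summed level of the 10 was 1.12 and 8.83 FPKM in shFOXM1 1 and 2, against 2.97 and 2.86 FPKM in shControl 1 and 2. The spread of this sum came mainly from CD79A, a part of the B cell receptor, at 0.270 and 7.38 FPKM in shFOXM1 1 and 2, against 1.73 and 1.44 FPKM in shControl 1 and 2. CD79A was highest in shFOXM1 2, where BLK was at 32.0 FPKM, and lowest in shFOXM1 1, where BLK was at 33.5 FPKM, and its part in the BLK level was not tested. An antisense RNA, AC022239.1, had 186 to 216 reads and shares 65 of the 5077 exonic bases of BLK.

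TWIST1 (ENSG00000122691, minus strand, chr7:19020991-19117672) was at 5.18 and 5.65 FPKM in shFOXM1 1 and 2, against 6.45 and 7.30 FPKM in shControl 1 and 2. Both shFOXM1 libraries were below both shControl libraries. These values rested on 156 to 219 reads, and counting intervals of the groups met: the higher shFOXM1 library reached up to 6.55 FPKM and the lower shControl library down to 5.55 FPKM. Means were 5.42 ± 0.329 FPKM in shFOXM1 and 6.87 ± 0.605 FPKM in shControl (SD, n = 2 each), a ratio of 0.788. The log2 fold change was -0.29 (SE 0.13, 95% interval -0.63 to 0.037), which did not pass (limma, adjusted p = 0.319). Of 10 mesenchymal markers 2 passed the filter, COL1A1 and COL3A1, and DCN, LUM, FBLN1 and TWIST2 had 0 reads in all 4 libraries. Their summed level was 48.4 and 20.5 FPKM in shFOXM1 1 and 2, against 27.1 and 25.5 FPKM in shControl 1 and 2, which overlapped between the groups.

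PLS3 (ENSG00000102024, plus strand, chrX:115561174-115650861) had 0 reads in every library, with a floor of 0.0480 to 0.0516 FPKM. The plastin of white blood cells, LCP1, filled the other end of the same family: it was at 468 and 240 FPKM in shFOXM1 1 and 2, against 389 and 397 FPKM in shControl 1 and 2. LCP1 was thus highest in shFOXM1 1 and lowest in shFOXM1 2, so its groups overlapped (limma, adjusted p = 0.736). PLS1, the plastin of gut epithelium, was at 1.67 and 0.942 FPKM in shFOXM1, against 2.38 and 2.02 FPKM in shControl (limma, adjusted p = 0.322).

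KIR3DL2 (ENSG00000240403, plus strand, chr19:54850443-54867207) had 2 reads in each shFOXM1 library, against 3 and 2 reads in shControl 1 and 2. This came to 0.0720 and 0.0699 FPKM in shFOXM1, against 0.113 and 0.0722 FPKM in shControl. The highest counting bound in any library was 0.329 FPKM. No difference was detectable at this depth. Its neighbour KIR3DL1, another receptor of NK cells, was at 25.4 and 26.7 FPKM in shFOXM1 1 and 2, against 31.6 and 33.3 FPKM in shControl 1 and 2. KIR2DS4, an activating receptor gene of the same cluster, was at 21.5 and 19.3 FPKM in shFOXM1, against 33.8 and 28.9 FPKM in shControl. It is annotated as a polymorphic pseudogene, and whether Myla makes the receptor is not known from RNA. Both of these had lower values in both shFOXM1 libraries, with log2 fold changes of -0.31 (SE 0.11) and -0.59 (SE 0.13), and neither passed limma's test (adjusted p = 0.249 and 0.187). KIR2DL1, an inhibitory receptor, was at 4.44 and 4.04 FPKM in shFOXM1, against 6.10 and 4.37 FPKM in shControl, and its groups overlapped.

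KIR genes resemble each other to different degrees, so the letters matter for which of them a read is counted to. The longest annotated transcripts of KIR3DL2 and KIR3DL1, of 1877 and 1871 bases, were identical at 92.2% of 1877 aligned positions. With KIR2DS4 the share for KIR3DL2 was 73.3% of 1936 aligned positions, and with KIR2DL1 77.0% of 1885, gaps included. Cut into windows of 50 bases, 5.97% of the KIR3DL2 transcript windows also occurred, letter for letter, in another annotated gene, and 3.47% of all its windows occurred in KIR3DL1. With windows of 100 or 150 bases the share was 0%. Exact copies of KIR3DL2 sequence in other genes of the reference were therefore few at 50 bases and absent at 100, while read length and the treatment of mismatches are not known, and KIR genes vary between people. The 250 bases before each start, printed here because the neighbours differ in level, come from RefSeq (GRCh38.p14, plus strand): chr19:54850193-54850442 for KIR3DL2 and chr19:54816218-54816467 for KIR3DL1. The windows were identical at 233 of 251 aligned positions, and capitals mark the 17 letters of each that had no identical partner in the alignment.
KIR3DL2: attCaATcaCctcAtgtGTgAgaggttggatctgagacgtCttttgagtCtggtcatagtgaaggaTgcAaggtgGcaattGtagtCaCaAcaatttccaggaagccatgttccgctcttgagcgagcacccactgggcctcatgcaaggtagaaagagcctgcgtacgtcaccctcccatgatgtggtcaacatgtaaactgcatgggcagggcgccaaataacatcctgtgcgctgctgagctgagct
KIR3DL1: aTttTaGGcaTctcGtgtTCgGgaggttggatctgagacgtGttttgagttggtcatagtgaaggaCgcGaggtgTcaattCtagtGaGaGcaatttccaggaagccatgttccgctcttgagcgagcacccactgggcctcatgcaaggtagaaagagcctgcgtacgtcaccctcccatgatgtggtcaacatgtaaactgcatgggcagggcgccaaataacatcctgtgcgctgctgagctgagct
All differing letters lie in the upstream part, and the stretch before the start is the same in both.

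Most markers of NK cells, the lineage in which KIR genes are normally used, were at 0. Of 10 NK cell markers 1 passed the filter, NKG7, and NCR1, KLRD1, KLRC1, KLRF1, FCGR3A and SH2D1B had 0 reads in every library. The summed level of the 10 was 2.39 and 1.92 FPKM in shFOXM1 1 and 2, against 3.38 and 3.63 FPKM in shControl 1 and 2. The sum was lower in both shFOXM1 libraries through NKG7, a granule protein, which was at 1.66 and 0.842 FPKM in shFOXM1, against 2.71 and 2.54 FPKM in shControl. GNLY, another granule protein, had overlapping groups, at 0.709 and 1.08 FPKM in shFOXM1, against 0.670 and 1.00 FPKM in shControl. Their part in the KIR values was not tested. In bulk RNA such as this, fewer cells of a kind and less RNA per cell cannot be told apart.

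DNM3 (ENSG00000197959, plus strand, chr1:171841498-172418466) showed the largest difference of the 5 tested markers. It was at 1.12 and 1.18 FPKM in shFOXM1 1 and 2, against 2.69 and 2.28 FPKM in shControl 1 and 2. The values rested on 187 and 203 reads in shFOXM1, against 433 and 381 in shControl. Both shFOXM1 libraries lay far below both shControl libraries, and the counting intervals of the groups did not meet, the highest bound in shFOXM1 being 1.35 FPKM and the lowest in shControl 2.06 FPKM. Means were 1.15 ± 0.0430 FPKM in shFOXM1 and 2.49 ± 0.292 FPKM in shControl (SD, n = 2 each), a ratio of 0.461. The log2 fold change was -0.70 (SE 0.16, 95% interval -1.10 to -0.29). It did not pass the test over all genes (limma, adjusted p = 0.187), while the unadjusted limma p was 0.00716. Of the genes tested, 4.92% differed by more than DNM3 in either direction. Since DNM3 is low, the pseudocount of 1 shrinks its value: with 0.1 in its place the log2 fold change was -1.05 and with 0.01 it was -1.11. With the pseudocount of 1, the log2 fold change was -0.68 without shFOXM1 1 and -0.72 without shFOXM1 2, fits in which shFOXM1 holds a single library. With 2 libraries in each group, limma's adjusted p ran from 0.116 to 0.377 over the alternatives.

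No annotated exon of another gene overlaps the 11329 exonic bases of DNM3. PIGC, on the opposite strand, overlaps its span at the far end without shared exonic bases, and it was at 3.59 and 4.70 FPKM in shFOXM1, against 3.98 and 4.44 FPKM in shControl, with overlapping groups. DNM3OS, an antisense RNA inside the DNM3 span, had 4 and 8 reads in shFOXM1, against 13 and 8 in shControl. DNM2, the dynamin found in most cells, was at 17.4 and 10.8 FPKM in shFOXM1, against 17.8 and 17.0 FPKM in shControl, and its groups overlapped (limma, adjusted p = 0.506).

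The window before the start of DNM3 is shown as that of the marker with the largest difference. It spans chr1:171841248-171841497 on the plus strand (RefSeq, GRCh38.p14), is 72% G and C, and holds 28 CG steps, printed in capitals.
DNM3: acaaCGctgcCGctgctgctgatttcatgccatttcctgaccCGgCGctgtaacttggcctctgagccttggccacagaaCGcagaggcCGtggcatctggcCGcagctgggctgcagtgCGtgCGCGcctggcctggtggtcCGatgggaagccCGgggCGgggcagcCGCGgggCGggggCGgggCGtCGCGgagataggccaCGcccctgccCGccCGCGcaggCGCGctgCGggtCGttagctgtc
Windows of 300 bases (250 before and 50 after a start) were searched on both strands for TTTGAA, the core of the CHR element bound by the MuvB complex, and for TGTTTA, a core that forkhead factors bind. The RefSeq table gave 18 windows for 7 markers: GATA3, TOX2, PLS3, KIR3DL2, DNM3, NEDD4L and MAF. The DNM3 window held neither motif, and neither did those of KIR3DL2, MAF and PLS3. TTTGAA was in 2 of the 18 windows, in TOX2 and NEDD4L, against 15.2% of all 35116 windows in the table. TGTTTA was in 3 of the 18, among them 2 of the 6 windows of GATA3, against 12.3% of all windows. The upstream 250 bases of these 2 GATA3 windows, both inside the annotated span of the gene, are shown with the forkhead letters in capitals: chr10:8049604-8049853 first and chr10:8060207-8060456 next, on the plus strand.
GATA3, earlier window: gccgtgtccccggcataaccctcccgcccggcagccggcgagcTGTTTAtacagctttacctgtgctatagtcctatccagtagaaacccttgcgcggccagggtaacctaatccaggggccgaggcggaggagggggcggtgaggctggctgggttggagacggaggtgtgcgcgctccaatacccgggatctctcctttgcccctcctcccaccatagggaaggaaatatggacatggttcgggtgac
GATA3, later window: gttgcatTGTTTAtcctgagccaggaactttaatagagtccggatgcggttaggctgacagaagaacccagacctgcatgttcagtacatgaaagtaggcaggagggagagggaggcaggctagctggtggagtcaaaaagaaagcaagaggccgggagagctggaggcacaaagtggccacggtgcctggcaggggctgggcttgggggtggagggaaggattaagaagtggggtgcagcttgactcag
A match is only a run of letters, and binding was not measured.

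NEDD4L (ENSG00000049759, plus strand, chr18:58044367-58401540) had 0 reads in both shFOXM1 libraries, against 0 and 2 reads in shControl 1 and 2. A level was thus not detectable, with a floor of 0.0113 to 0.0121 FPKM where the count was 0. Other ligases of its family were expressed: ITCH, which restrains T cell activation, was at 12.3 and 11.2 FPKM in shFOXM1, against 10.4 and 10.1 FPKM in shControl. WWP1 was at 11.7 FPKM in both shFOXM1 libraries, against 8.56 and 8.73 FPKM in shControl. WWP2 was at 6.81 and 6.72 FPKM in shFOXM1, against 4.99 and 3.80 FPKM in shControl. All 3 were higher in both shFOXM1 libraries, as were SMURF1 and SMURF2, which target TGF-beta signalling, while NEDD4 itself, at 1.41 and 1.10 FPKM in shFOXM1 against 2.06 and 1.88 FPKM in shControl, was lower in both. Groups that did not overlap, 5 of 6 higher here, stood beside 27.3% of all genes tested with shFOXM1 above shControl and 53.2% apart either way. None of the 6 measured of 8 relatives passed limma's test (adjusted p from 0.204 for WWP1 to 0.576 for SMURF1). Of the adaptors and regulators of NEDD4L, 3 of 5 were measured and 0 passed. NDFIP1, which brings substrates to NEDD4 ligases, was at 23.1 ± 0.409 FPKM in shFOXM1 and 22.4 ± 0.232 FPKM in shControl. NDFIP2, a related adaptor, was at 10.5 ± 4.81 FPKM in shFOXM1 and 10.5 ± 0.553 FPKM in shControl. The deubiquitinase USP10 was at 38.6 ± 4.02 FPKM in shFOXM1 and 41.0 ± 0.134 FPKM in shControl (SD, n = 2 each).

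Across the markers, limma called 0 of the 5 tested, with 0% of the 12033 genes tested called higher and 0% called lower (Benjamini-Hochberg adjusted p under 0.05). At an unadjusted p under 0.05 limma had 1 marker lower, DNM3, and 0 higher, beside 8.99% of all tested genes lower and 8.82% higher. The groups did not overlap for 4 of the 5, 2 of them higher and 2 lower, beside 53.2% of all genes tested (27.3% higher and 25.9% lower). By sign alone 3 of the 5 were higher and 2 lower, beside 49.9% and 50.1% of all genes. The median log2 fold change of the 5 was 0.0020, against -0.00075 over all genes tested. TOX thus lay near the middle of all genes tested, and 2.46% of them had a lower log2 fold change than DNM3. Without shFOXM1 1 limma called 2 of the 5, GATA3 higher and DNM3 lower, beside 11.3% of all genes called higher and 14.5% lower. Without shFOXM1 2 it called 0 of the 5, beside 2.34% higher and 2.95% lower. In voom with library weights it called 0 of the 5, beside 0.166% higher and 0.0748% lower.

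**Figure D2:**
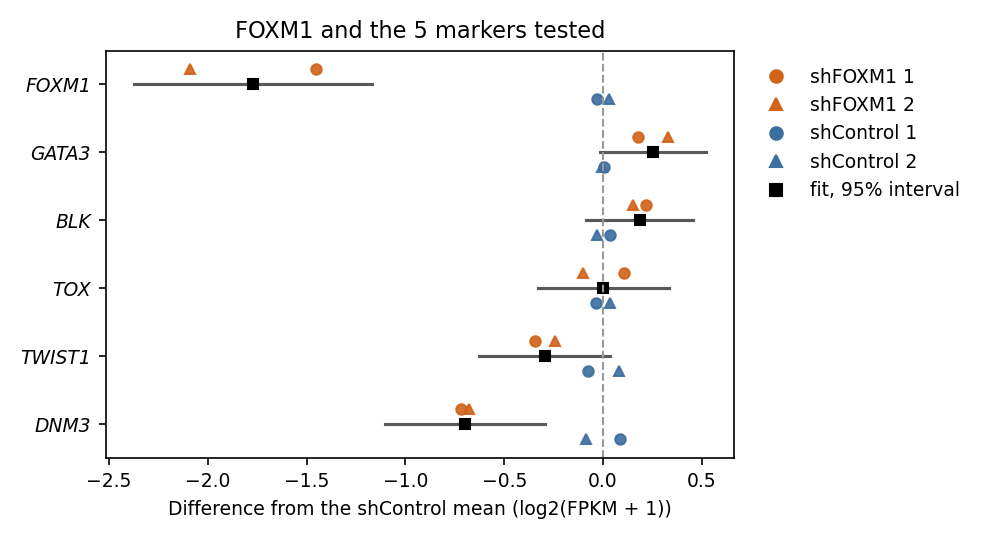
Difference of each library from the shControl mean on the log2(FPKM + 1) scale for FOXM1 and the 5 tested markers, with the fitted difference (square) and its 95% interval (line). DNM3 at -0.70 has an interval that lies below 0, the intervals of the other 4 markers include 0, and FOXM1 is at -1.77.

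**Figure D3:**
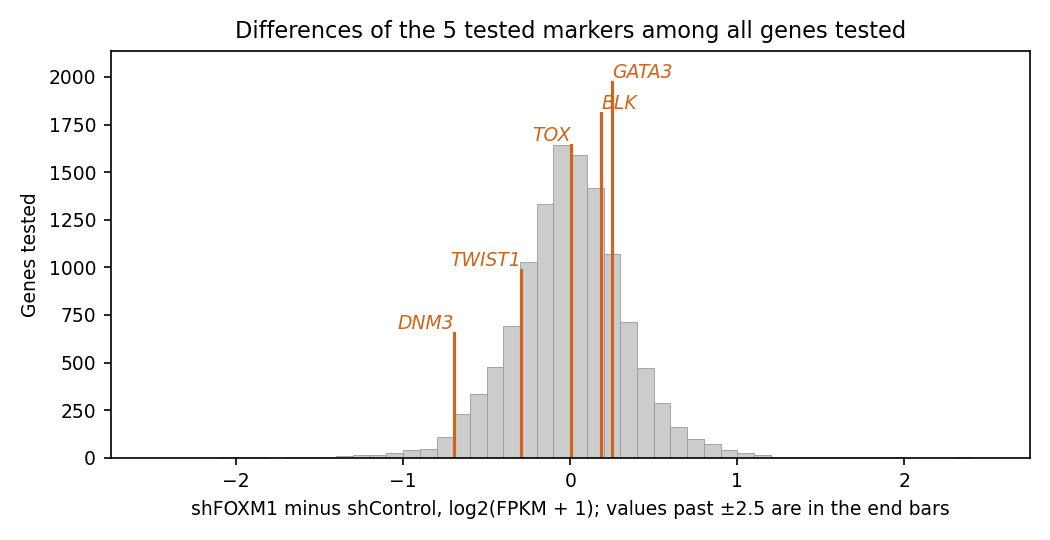
Number of genes by log2 difference between shFOXM1 and shControl for the 12033 genes tested (grey bars), with the 5 tested markers as vertical lines. TOX lies at the centre, BLK, GATA3 and TWIST1 within the bulk, and DNM3 at -0.70 in the lower tail.

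Relatives of the markers show which member of each family the line used. In the GATA family, GATA3 stood alone: of the 5 relatives, GATA2, GATA4 and GATA5 had 0 reads in every library and GATA1 had at most 2. GATA6 alone passed the filter, at 0.514 and 0.815 FPKM in shFOXM1, against 1.20 and 1.27 FPKM in shControl. It passed through its shControl libraries alone, so the filter favoured a lower sign and no test result is drawn from it. In the TOX family, TOX4, which is expressed in most cells, was at 11.5 and 12.1 FPKM in shFOXM1, against 9.65 and 9.22 FPKM in shControl, and did not pass (limma, adjusted p = 0.275), while TOX3 had 0 reads in all libraries. TWIST2, the sole close relative of TWIST1 listed here, had 0 reads throughout. In the Src family BLK was the most abundant member. FYN, which takes part in T cell receptor signalling, was at 4.12 and 4.29 FPKM in shFOXM1, against 5.36 and 5.28 FPKM in shControl (limma, adjusted p = 0.310). YES1 was at 10.9 and 3.56 FPKM in shFOXM1, against 4.08 and 5.44 FPKM in shControl, so that shFOXM1 1 alone was high. LCK, the kinase that starts T cell receptor signalling, had 0 reads in both shFOXM1 libraries, against 1 read in each shControl library.

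In the MAF family MAFG and MAFK, small proteins that lack an activation domain, were above MAF in every library, while MAFF, another of the small ones, was below it at 0.180 and 0.210 FPKM in shFOXM1, against 0.276 and 0.266 FPKM in shControl. MAFG was at 21.1 and 22.7 FPKM in shFOXM1, against 15.0 and 18.4 FPKM in shControl (limma, adjusted p = 0.268), and MAFK at 9.31 and 8.49 FPKM in shFOXM1, against 9.44 and 10.9 FPKM in shControl (limma, adjusted p = 0.520). Over all families 18 of 39 relatives were measured, 8 of them higher and 10 lower by sign, and the median of their log2 fold changes was -0.20. GATA6, among the 10 lower, had passed the filter through its shControl libraries alone. Limma called 0 of the 18 after adjustment, and at an unadjusted p under 0.05 it had 4 higher and 2 lower, beside 8.82% and 8.99% of all genes tested.

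**Figure D4:**
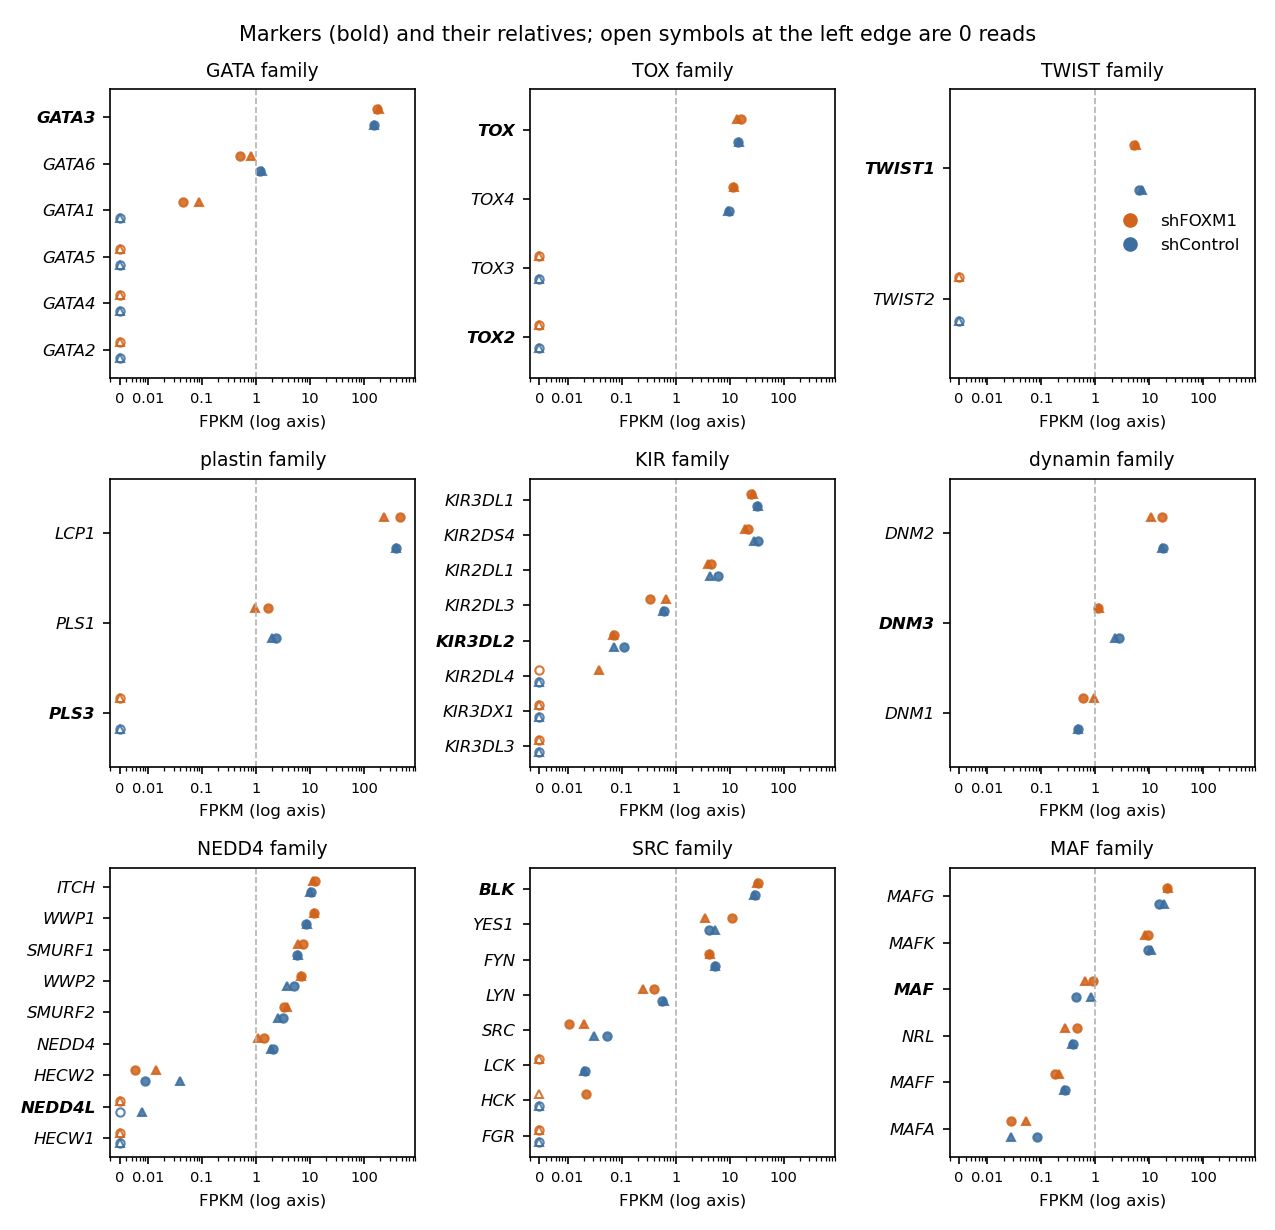
Level of each marker (bold) and its relatives in each library, in FPKM on a log axis, by gene family, with shFOXM1 libraries above shControl libraries and open symbols at the left edge for 0 reads. Circles are replicate 1 and triangles replicate 2, and dashed lines are at 1 FPKM. GATA3, TOX, BLK and TWIST1 are the highest of their families, while PLS3, KIR3DL2, DNM3, NEDD4L and MAF lie below relatives that are expressed.

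Other genes described as raised in cutaneous T cell lymphoma split much as the 10 did. Of 14 on the list, 5 were measured and 9 had at most 6 reads in each library, among them EPHA4, FCRL3, FYB1 and SYCP1 with 0. CCR4, the chemokine receptor that homes T cells to skin, was at 85.0 ± 19.9 FPKM in shFOXM1 and 90.3 ± 6.97 FPKM in shControl. TIGIT, an inhibitory receptor, was at 48.6 ± 1.21 FPKM in shFOXM1 and 49.7 ± 0.964 FPKM in shControl. GTSF1, a germ cell protein, was at 17.4 ± 0.487 FPKM in shFOXM1 and 18.5 ± 0.816 FPKM in shControl, and KLHL42 at 11.2 ± 2.34 FPKM in shFOXM1 and 8.66 ± 0.417 FPKM in shControl (SD, n = 2 each). Limma called 0 of the 5, and their median log2 fold change was -0.032.

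Of 7 genes described as lost or lowered in these lymphomas, 4 were measured, 2 higher and 2 lower by sign, and limma called 0. CD7 and BCL7A had at most 2 reads in each library. DPP4, the surface peptidase CD26, was by contrast expressed, at 24.7 and 11.6 FPKM in shFOXM1 1 and 2, against 28.2 and 27.1 FPKM in shControl 1 and 2 (limma, adjusted p = 0.378). The low value was that of shFOXM1 2. SATB1, a chromatin organiser, was at 2.13 ± 0.132 FPKM in shFOXM1 and 1.82 ± 0.278 FPKM in shControl. TGFBR2, a receptor for TGF-beta, had overlapping groups (log2 fold change 0.10, SE 0.17), and ZEB1, a zinc-finger repressor, at 6.54 ± 1.58 FPKM in shFOXM1 and 7.25 ± 0.328 FPKM in shControl (SD, n = 2 each).

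Of 12 genes of the T helper 2 programme, which GATA3 directs, 5 were measured, with 0 called by limma (median log2 fold change 0.061). IL13, a T helper 2 cytokine, was at 67.0 and 27.2 FPKM in shFOXM1 1 and 2, against 30.6 and 36.6 FPKM in shControl 1 and 2. IL5, its neighbour in the cytokine cluster, was at 3.83 and 6.82 FPKM in shFOXM1, against 7.37 and 8.29 FPKM in shControl. The 2 shFOXM1 libraries thus went apart for IL13, and shFOXM1 1 was the lowest for IL5. IL21, a helper cytokine, was at 0.451 and 1.33 FPKM in shFOXM1, against 2.01 and 1.81 FPKM in shControl, and STAT6, which carries the IL4 signal, at 40.3 ± 5.96 FPKM in shFOXM1 and 37.9 ± 1.92 FPKM in shControl (SD, n = 2 each). IL4 had at most 1 read in any library, and IL10 had 0.

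Among 9 partners and counterparts of GATA3 in T cells, 6 were measured, 1 higher and 5 lower by sign, and limma called 0. LEF1, an HMG-box factor of the T lineage, was at 8.83 and 7.94 FPKM in shFOXM1, against 12.1 and 11.6 FPKM in shControl. Both shFOXM1 libraries were lower, with a log2 fold change of -0.46 (SE 0.12) that did not pass (limma, adjusted p = 0.196). RUNX1 was at 2.53 ± 0.590 FPKM in shFOXM1 and 3.16 ± 0.193 FPKM in shControl, and ZFPM1, a cofactor of GATA proteins, at 3.67 ± 0.676 FPKM in shFOXM1 and 4.28 ± 0.778 FPKM in shControl (SD, n = 2 each). BCL11B, which holds T cell identity, was at 7.45 ± 1.81 FPKM in shFOXM1 and 7.89 ± 0.154 FPKM in shControl. TBX21, the factor of the opposing T helper 1 fate, had 0 reads in all libraries.

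Of 13 partners of TWIST1 and genes of the mesenchymal programme, 7 were measured, 2 higher and 5 lower by sign, and limma called 0 (median log2 fold change -0.15). TCF4, an E protein that pairs with TWIST1, was at 6.67 and 6.75 FPKM in shFOXM1, against 8.03 and 9.44 FPKM in shControl, lower in both shFOXM1 libraries (log2 fold change -0.33, SE 0.13, limma adjusted p = 0.282). TCF3, another E protein, was at 36.7 ± 5.43 FPKM in shFOXM1 and 41.0 ± 0.216 FPKM in shControl, and ID2, which blocks E proteins, at 28.9 ± 6.40 FPKM in shFOXM1 and 35.5 ± 3.90 FPKM in shControl (SD, n = 2 each). FN1, a matrix protein, was at 45.1 and 24.2 FPKM in shFOXM1 1 and 2, against 21.2 and 22.0 FPKM in shControl 1 and 2. Both shFOXM1 libraries were higher, shFOXM1 1 by far the more (limma, adjusted p = 0.367).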

How the data were processed

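RNA of Myla cells was sequenced in 2 shFOXM1 and 2 shControl libraries, prepared with a SMARTER mRNA kit per the labels' protocols. The authors deposited a single table of FPKM values with gene lengths, per the file headers. Which aligner and counter were run, and with which strand setting, is not given in the sources used here. Mouse builds (GRCm38, mm10) stand in the submitters' processing notes, whereas all 58735 gene identifiers carry coordinates of human GENCODE release 29 on GRCh38. Columns named sh0_1 and sh0_2 were read as shControl and those named sh1 and sh2 as shFOXM1. The naming thus differs between the groups, and sh1 and sh2 may be different hairpins or replicates of the same hairpin.

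Multiplying FPKM by length and dividing by a constant fitted for each library gave whole reads (within 0.001 read) for 100% of values. The fit started from the smallest nonzero product, taken as 1 read. The recovered reads gave the depths and counting intervals, which cover counting error only. The library size implied by FPKM differed from their sum by -1.44% and 3.80% in shFOXM1 1 and 2, and by 0.319% and -0.173% in shControl 1 and 2. The filter kept 12033 genes that reached 1 FPKM in 2 or more libraries. Limma 3.58.1 (R 4.3.3) was fitted to log2(FPKM + 1), a scale that understates changes of low genes, with a trended empirical Bayes variance, two-sided tests and Benjamini-Hochberg adjustment over the 12033. For 2 against 2 an exact two-sided permutation test cannot go below 0.333, so none was used. The design text calls the libraries biological replicates but does not state separate transductions. The p-values therefore describe the spread among these libraries, which may be technical. Within shFOXM1 that spread may also include a difference between hairpins. Replicates were not duplicates: a chi-square per degree of freedom of 36.5 (shFOXM1) and 3.93 (shControl) exceeded sampling noise.

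The members and lists were chosen with earlier results of these data known. Named are all 10 members, relatives with a mean of at least 1 FPKM, and up to 4 measured genes per list with the smallest unadjusted p. Cell type marker lists are instead given by counts and defining genes, with summed levels for the B cell, NK cell and mesenchymal lists. Of 10 monocyte markers 1 passed the filter, CSF1R. Of 10 keratinocyte markers 4 passed: KRT10, TP63, CDH1 and SFN. Genes at 0 or few reads, GATA6, MAFF, NKG7, GNLY and overlapping genes were named after their values were seen. A relative of the members is not reported here.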

Additional observations from a re-analysis of the deposited data

How the results depend on the processing

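The test was repeated with pseudocounts of 0.1 and 0.01, without the filter, with genes averaging 5 FPKM or more, after quantile normalization or median-ratio scaling, without the trend, with robust variances, with a replicate block, by voom on the recovered reads with and without library weights, and with each library left out. Limma called 0 genes either way in all of these except voom with library weights (20 higher, 9 lower) and the fits lacking an shFOXM1 library. Median-ratio scaling had the same factor, 1.00607, in every library. The deposited values were thus already level on that measure, and this scaling could not shift the libraries against each other. With 1 library left out, 0 to 1360 genes were called higher and 0 to 1744 lower. Calls came without shFOXM1 1 (1360 and 1744) and without shFOXM1 2 (281 and 355); in these fits only the shControl pair supplies the spread, and the lone shFOXM1 library is assumed to vary like it.

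With 1 library left out, the log2 fold change ran from -2.09 to -1.45 for FOXM1, 0.17 to 0.33 for GATA3, -0.10 to 0.11 for TOX, -0.37 to -0.22 for TWIST1, -0.78 to -0.61 for DNM3 and 0.15 to 0.22 for BLK. FOXM1 passed without shFOXM1 1 (limma, adjusted p = 0.0122), without shFOXM1 2 (0.0331) and in voom with library weights (-1.89, adjusted p = 0.0202); over all alternatives its p ran from 0.0122 to 0.753. TOX turned sign without shFOXM1 1 (-0.10), without shControl 1 (-0.033) and after quantile normalization (-0.011). DNM3 is under the filter of 5 FPKM and has no value there. The cause of these differences was not tested.

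Libraries with the same number hardly deviated together from their group means (correlation across genes 0.0421), so the numbers were treated as names. With 2 libraries in each group the second pair mirrors the first, so this is a single correlation. The replicate block called 0 genes, with limma adjusted p of 0.229 for DNM3 and 0.438 for GATA3, and it changed no call among FOXM1 and the 5 tested markers. Depth limits KIR3DL2 and NEDD4L, at 3 reads or fewer, and PLS3 and TOX2, at 0.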
